A study of Mus musculus with 28 samples.

Results

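Kainic acid is an agonist of kainate-type glutamate receptors that evokes seizures. After it, transcripts of the GABA-A receptor subunits Gabra5 and Gabrb2 fell in ribosome-bound RNA of the CaMK2a line from mouse hippocampal CA1. Gabra2 and Gabra4 rose there, but leaving out certain single libraries removed these calls. Of all genes tested in this comparison, 35.1% were called in either direction. The genes described are 7 subunits of this receptor, Gabra2, Gabra3, Gabra4, Gabra5, Gabrb1, Gabrb2 and Gabrd, taken as the rows with these gene names in the deposited count tables. All 7 are present in every table, out of 14711 genes found in any of the 6 tables.

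RNA was measured in C57BL/6 mice aged 3 to 4 weeks, injected intraperitoneally with kainic acid or PBS, with tissue taken after 6 h. All mice carried 1 copy of LSL-Rpl22-HA, which adds an HA tag to a ribosomal protein where Cre removes a stop cassette, and either CaMK2a-Cre/+, in which the promoter of a kinase gene of excitatory neurons drives Cre, or PV-Cre/+, in which parvalbumin expression does. Per the labels an anti-HA antibody (12 ug per IP) pulled ribosomes from the lysate (the IP library), and a part of the same lysate gave the input library. The 8 groups were CaMK2a IP, CaMK2a input, PV IP and PV input, each after kainic acid and after PBS. Each CaMK2a group had 3 libraries from pools of 4 mice (20 ng RNA), and each PV group had 4 libraries from pools of 9 to 10 mice (2.5 ng RNA). In the deposited tables the PBS columns carry a time of 0 h in their names, against 6 h in the labels. Counted reads per library ran between 6.06 M and 15.8 M. Levels are CPM, counts per 1 M reads counted in genes, scaled with factors computed over all 28 libraries. Because each library comes from tissue or a pull-down, fewer cells of a type and less RNA per cell cannot be told apart.

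The labelled lines were checked on marker genes. Pvalb, the gene of parvalbumin, was at 89 to 171 CPM in PV IPs after kainic acid and 121 to 177 CPM after PBS, against 4.19 to 10.6 CPM and 6.44 to 20.7 CPM in the matching PV inputs. In CaMK2a IPs Pvalb did not exceed 3.73 CPM. The summed level of 8 astrocyte markers was 1298 to 2510 CPM in CaMK2a IPs, against 8186 to 9643 CPM in CaMK2a inputs. In PV IPs it was 3636 to 6731 CPM, against 9158 to 11203 CPM in PV inputs. The sum of 8 pyramidal neuron markers was 3471 to 6642 CPM in PV IPs, against 7988 to 9910 CPM in PV inputs. Camk2a itself was at 2865 to 5860 CPM in PV IPs after kainic acid. In PV IPs against inputs after PBS, 7 of 8 astrocyte and 7 of 8 pyramidal neuron markers were called lower. After kainic acid these were 5 and 3. The PV IPs thus held more Pvalb than their inputs and still held transcripts of other cell types. In CaMK2a IPs against inputs, 5 of 8 pyramidal neuron markers were called higher and 2 lower after PBS, and 3 higher and 1 lower after kainic acid. Slc17a7, one of that list, averaged 882 CPM in IPs and 1186 CPM in inputs after PBS. In CaMK2a IPs 7 dentate granule cell markers summed to 279 to 400 CPM after PBS, against 349 to 452 CPM in inputs. After kainic acid these sums were 400 to 507 CPM and 344 to 490 CPM. PV replicate 4 stood apart from replicates 1 to 3 in all 4 PV groups: on the first principal component of deviations from the group means, which held 26.4% of the variance, it lay at 38.4 to 48.0, against -21.5 to -10.0 for the others. Values without it are given for kainic acid against PBS in PV IPs and for the difference between lines, and elsewhere where its absence changed a call.

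GABA-A receptors are pentameric chloride channels that carry fast inhibition in the brain. Most combine alpha and beta subunits with a gamma or a delta subunit; GABA binds between alpha and beta, and benzodiazepines between alpha and gamma. Receptors with alpha2 are concentrated at synapses on cell bodies and axon initial segments of pyramidal cells, those with alpha5 lie largely outside synapses on hippocampal pyramidal dendrites, and those with delta, often paired with alpha4 in dentate granule cells and forebrain, carry tonic inhibition.

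Gabra2 (chromosome 5, minus strand, 70961037 to 71095849), Gabra4 (chromosome 5, minus strand, 71569729 to 71658308) and Gabrb1 (chromosome 5, plus strand, 71658113 to 72149572) are neighbours in mm10 as the deposited tables give it. Gabra4 and Gabrb1 start head to head: in GENCODE M21 they share 46 exonic bases on opposite strands between 71658113 and 71658308. Gabra5 (chromosome 7, minus strand, 57407669 to 57510102) shares 148 exonic bases with the antisense gene Gm9962. The strandedness of the counts is not given in the sources used here, so reads in these bases cannot be assigned to one strand. Gabra3 is on chromosome X (minus strand, 72432676 to 72656675), Gabrb2 on chromosome 11 (plus strand, 42419757 to 42632591) and Gabrd on chromosome 4 (minus strand, 155384979 to 155398217).

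The upstream sequences of the 4 subunits that changed in CaMK2a IPs are shown because 2 rose and 2 fell in the same libraries. They are taken from RefSeq's GRCm38.p6 table, which holds windows for 6 of the 7 genes. They run 5′ to 3′ on the gene's own strand in the 250 bases before a listed start, and stop before any annotated exon and before the deposited gene's own start where that falls inside the window. Capitals mark a match, on either strand, to any of 3 motifs of activity-regulated factors: the CRE TGACGTCA, the AP-1 site TGANTCA and the EGR site GCGNGGGCG. The Gabra2 window is chr5:71095850-71096099 (minus strand), that of Gabra4 is chr5:71658364-71658558 (minus strand, 195 bases), that of Gabra5 is chr7:57510103-57510309 (minus strand, 207 bases), and that of Gabrb2 is chr11:42420190-42420439 (plus strand, the first of its 3 listed windows, inside the span of the deposited gene).
Gabra2: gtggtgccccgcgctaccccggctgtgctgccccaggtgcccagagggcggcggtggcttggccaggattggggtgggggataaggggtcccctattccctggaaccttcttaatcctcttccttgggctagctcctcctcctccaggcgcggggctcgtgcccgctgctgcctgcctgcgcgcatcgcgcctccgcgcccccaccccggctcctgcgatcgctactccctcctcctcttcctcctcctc
Gabra4: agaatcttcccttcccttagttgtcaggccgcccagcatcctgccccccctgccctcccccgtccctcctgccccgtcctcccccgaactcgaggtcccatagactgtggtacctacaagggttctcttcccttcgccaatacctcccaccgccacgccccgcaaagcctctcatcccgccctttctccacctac
Gabra5: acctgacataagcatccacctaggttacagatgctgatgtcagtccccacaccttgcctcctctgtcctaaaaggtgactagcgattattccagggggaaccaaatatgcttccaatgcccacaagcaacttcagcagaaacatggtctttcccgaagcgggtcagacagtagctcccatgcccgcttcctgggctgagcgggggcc
Gabrb2: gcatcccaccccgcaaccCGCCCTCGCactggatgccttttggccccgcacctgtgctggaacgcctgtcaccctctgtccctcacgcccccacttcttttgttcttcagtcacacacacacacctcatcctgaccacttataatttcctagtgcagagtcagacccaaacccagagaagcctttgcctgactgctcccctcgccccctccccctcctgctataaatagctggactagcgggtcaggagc
The 1 match is to the EGR site, on the opposite strand, at base 19 of the Gabrb2 window. The Gabrb2 windows at 42420524 to 42420773 and 42420951 to 42421200, not printed here, hold 0 matches. Among 32851 windows of 250 bases from the same table, 4.7% hold an EGR match, 6.75% an AP-1 match and 1.55% a CRE match. Those percentages are over whole windows, while the Gabra4 and Gabra5 windows were cut to 195 and 207 bases. A match is a string of letters and not evidence of binding.

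**Figure D1:**
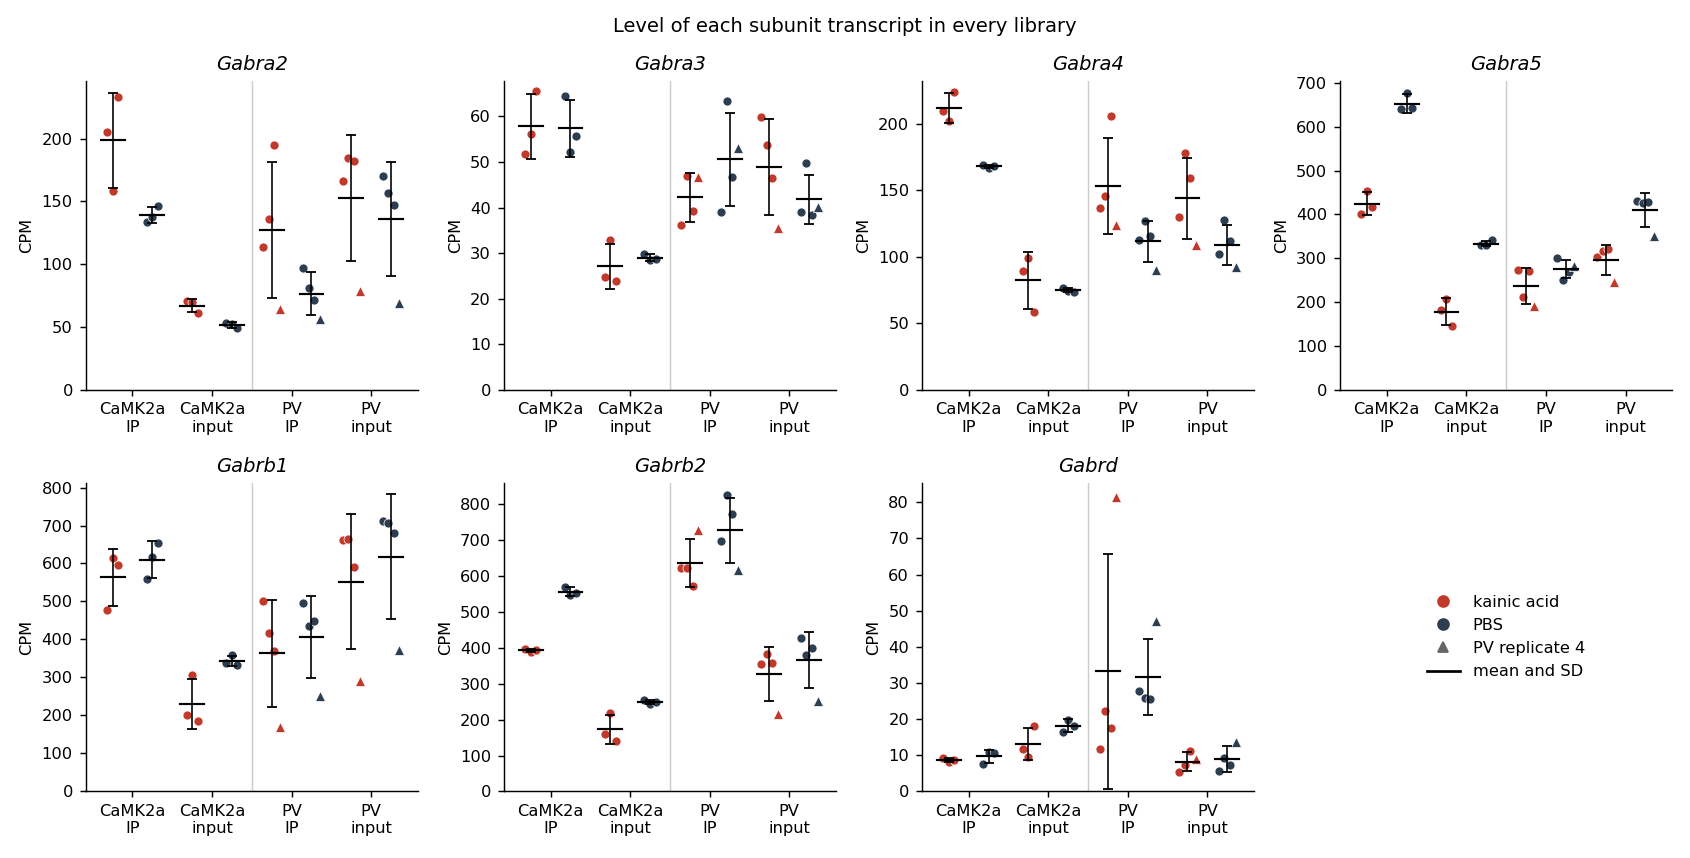
Level of each of the 7 subunit transcripts in CPM (vertical axis, from 0) in every library of the 8 groups, kainic acid in red and PBS in dark blue, triangles for PV replicate 4, bars for the mean and SD (n = 3 in CaMK2a groups, 4 in PV groups). In CaMK2a IPs Gabra5 sits at 402 to 454 CPM after kainic acid and at 640 to 678 CPM after PBS, and Gabrd reaches its highest value, 81.4 CPM, in PV replicate 4.

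Kainic acid against PBS was first compared in CaMK2a IPs. Of the 7 subunits, 2 rose, 2 fell and 3 did not pass the test, against 35.1% of 10663 genes called in either direction in this comparison, 19.8% higher and 15.3% lower (edgeR quasi-likelihood test, Benjamini-Hochberg adjusted p under 0.05 over all genes tested). The median log2 fold change was -0.11 over the 7 subunits and 0.01 over all genes tested. In the same comparison 4 of 8 pyramidal neuron markers were called lower. Their summed levels were 8091 to 9477 CPM after kainic acid against 10065 to 11536 CPM after PBS. Of 12 interneuron markers 5 were called higher and 1 lower, with sums of 3299 to 3842 CPM against 2480 to 2828 CPM. Within this list Pvalb averaged 1.54 CPM after kainic acid and 3.28 CPM after PBS, Slc32a1 4.39 and 4.23 CPM, and Gad1 53.4 and 25.8 CPM. In CaMK2a IPs against inputs after PBS, 11 of these 12 markers were called lower and 1 higher. Yet the sums overlapped, at 2480 to 2828 CPM in IPs and 2737 to 3203 CPM in inputs. Sums of this list in CaMK2a libraries, here and below, thus need not follow most of its genes. Of 7 dentate granule cell markers 3 were called higher and 3 lower. No listed marker that was measured was at 0 in all libraries. Their part in the subunit results was not tested.

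Gabra5, whose protein forms mainly extrasynaptic receptors on pyramidal dendrites, had 402, 454 and 418 CPM in CaMK2a IPs after kainic acid, against 640, 678 and 642 CPM after PBS. The groups were well apart. It fell by 0.61 ± 0.08 on the log2 scale (SE, adjusted p = 0.00033), which left it at 0.653 times the PBS level. Gabrb2, a beta subunit, had 397, 388 and 395 CPM after kainic acid, against 571, 547 and 552 CPM after PBS. Its replicates hardly differed within a group, and it fell by 0.49 ± 0.07 (adjusted p = 0.00074). Both falls passed the test whichever single library was left out, at log2 fold changes of -0.67 to -0.58 for Gabra5 and -0.51 to -0.48 for Gabrb2.

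Gabra2, which encodes the alpha subunit of receptors on cell bodies and axon initial segments, moved the other way. It had 205, 158 and 233 CPM in CaMK2a IPs after kainic acid, against 134, 138 and 146 CPM after PBS. All kainic acid libraries lay above all PBS libraries, but they were spread wider. It rose by 0.52 ± 0.13 (adjusted p = 0.014), and this call was lost without kainic acid replicate 3 (0.38, adjusted p = 0.069), without PBS replicate 1 (adjusted p = 0.067) and without PBS replicate 2 (adjusted p = 0.055). Gabra4, an alpha subunit of delta-containing receptors, had 210, 202 and 224 CPM after kainic acid, against 169, 167 and 168 CPM after PBS. Here too the groups did not overlap, and it rose by 0.34 ± 0.08 (adjusted p = 0.011). Its call was lost without PBS replicate 1 (0.34, adjusted p = 0.054), without PBS replicate 3 (adjusted p = 0.053) and in a fit to all 4 CaMK2a groups (0.31, adjusted p = 0.078). The authors' deposited table lists Gabra2 at a fold of 1.41 (FDR 0.005) and Gabra4 at a fold of 1.25 (FDR 0.029) in this comparison.

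The other 3 subunits overlapped between treatments in CaMK2a IPs. Gabra3 averaged 57.9 ± 7.07 CPM after kainic acid and 57.3 ± 6.32 CPM after PBS (SD, n = 3 each; log2 fold change 0.02, 95% interval -0.22 to 0.26). Gabrb1 averaged 563 ± 74.5 CPM after kainic acid and 610 ± 49.1 CPM after PBS (-0.11, interval -0.32 to 0.10). Gabrd was scarce, at 8.68 ± 0.456 CPM after kainic acid and 9.68 ± 1.71 CPM after PBS (-0.14, interval -0.54 to 0.27), from 69 to 120 counted reads per library. With so few libraries such intervals are narrower than 95% intervals of the test would be, and the widest is that of Gabrd.

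Whole CA1 of the same mice, the CaMK2a inputs, showed the fall of Gabra5 and Gabrb2 as well. Of the 7 subunits, 1 rose and 3 fell there, against 35.0% of 11287 genes called in either direction, 19.3% higher and 15.7% lower. Gabra5 had 182, 206 and 145 CPM after kainic acid, against 330, 330 and 341 CPM after PBS. It fell by 0.91 ± 0.11 (adjusted p = 3.9e-06), to 0.533 times the PBS level. Gabrb2 had 161, 218 and 140 CPM after kainic acid, against 256, 243 and 250 CPM after PBS, and fell by 0.52 ± 0.12 (adjusted p = 0.0031). Gabrb1, another beta subunit, had 201, 306 and 185 CPM after kainic acid, against 338, 358 and 334 CPM after PBS. All 3 genes were lower in every kainic acid library than in any PBS library, and Gabrb1 fell by 0.57 ± 0.14 (adjusted p = 0.0033). The share of all genes with such a separation was not counted.

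Gabra2 was the subunit that rose in CaMK2a inputs: it had 70.7, 69.5 and 61.0 CPM after kainic acid, against 53.4, 52.2 and 48.8 CPM after PBS. The rise of 0.38 ± 0.11 (adjusted p = 0.014) was lost without PBS replicate 2 (adjusted p = 0.061) or PBS replicate 3 (adjusted p = 0.065). Gabra4 had 89.7, 98.9 and 58.4 CPM after kainic acid, against 76.4, 74.2 and 73.8 CPM after PBS (0.14, adjusted p = 0.47), and passed the test only without kainic acid replicate 3 (0.32, adjusted p = 0.020). The level of Gabra4 in that library lay below all PBS inputs. Gabrd had 11.7, 9.66 and 18.1 CPM after kainic acid, against 16.4, 19.9 and 18.2 CPM after PBS (-0.48, adjusted p = 0.096). It was called lower with replicate number as a block (-0.51, adjusted p = 0.022), and without kainic acid replicate 3 (-0.78, adjusted p = 0.0050). The block takes kainic acid and PBS pools of the same number as paired, which is an assumption. Gabra3 did not pass (-0.09, interval -0.38 to 0.20). In these inputs pyramidal neuron markers summed to 7331 to 7747 CPM after kainic acid, against 8563 to 9703 CPM after PBS (4 of 8 called lower). Interneuron markers summed to 3785 to 4999 CPM after kainic acid, against 2737 to 3203 CPM after PBS (6 of 12 called higher, 1 lower), and endothelial and mural markers to 77.3 to 85.9 CPM against 57.2 to 62.7 CPM (3 of 6 called higher). Their part in the subunit results was not tested.

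**Figure D2:**
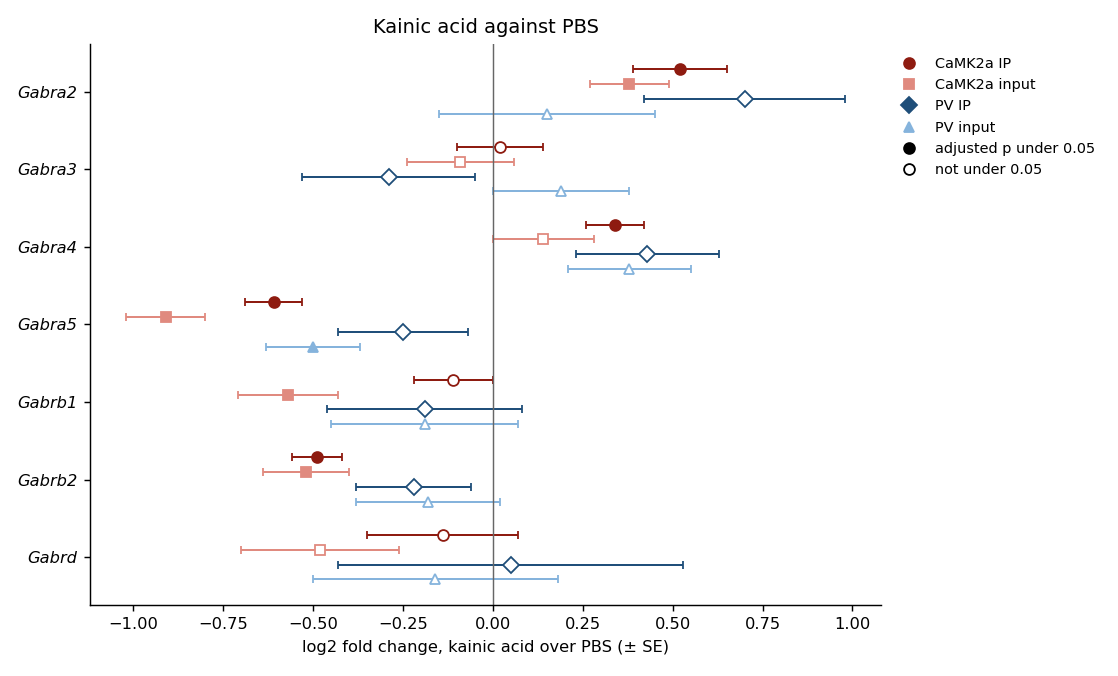
Log2 fold change of kainic acid over PBS (horizontal axis, points with SE bars) for each subunit in CaMK2a IP, CaMK2a input, PV IP and PV input; filled symbols passed the adjusted p threshold of 0.05. Gabra5 lies left of 0 in all 4 fractions, between -0.91 and -0.25, and Gabra2 and Gabra4 lie right of 0 in all 4.

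In the PV IPs none of the 7 subunits passed the test after kainic acid against PBS, where 4.85% of 11107 genes were called by edgeR's quasi-likelihood test, 4.05% higher and 0.801% lower. At unadjusted p under 0.05 there were 2, Gabra2 and Gabra4, and DESeq2 also called 0. Gabra2 had 114, 136, 195 and 64.0 CPM after kainic acid, against 97.2, 81.1, 71.4 and 56.3 CPM after PBS (0.70 ± 0.28, adjusted p = 0.20). In both groups replicate 4 is the lowest. Among replicates 1 to 3 alone the groups did not overlap, and Gabra2 was called higher (0.81 ± 0.22, adjusted p = 0.033); without kainic acid replicate 4 alone it was also called (0.93, adjusted p = 0.018). Gabra4 had 137, 146, 206 and 124 CPM after kainic acid, against 113, 127, 116 and 90.4 CPM after PBS (0.43 ± 0.20, adjusted p = 0.31; 0.44 in replicates 1 to 3), and its groups overlap by a single pair of libraries. Gabra5 had 273, 212, 271 and 190 CPM after kainic acid, against 301, 251, 269 and 282 CPM after PBS. Those groups overlap (-0.25, interval -0.59 to 0.10; -0.14 in replicates 1 to 3).

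For the remaining subunits the groups overlapped when all libraries were kept. Gabrb2 averaged 637 ± 66.2 CPM after kainic acid and 728 ± 90.7 CPM after PBS (SD, n = 4 each; -0.22, interval -0.54 to 0.10). In replicates 1 to 3 its groups did not overlap, at 573 to 623 CPM after kainic acid and 697 to 826 CPM after PBS, and the value was -0.36 ± 0.11 (adjusted p = 0.060). Gabrb1 averaged 364 ± 141 CPM after kainic acid and 407 ± 108 CPM after PBS (-0.19, interval -0.72 to 0.35; -0.12 in replicates 1 to 3). Gabra3 averaged 42.2 ± 5.41 CPM after kainic acid and 50.6 ± 10.3 CPM after PBS (-0.29, interval -0.75 to 0.18; -0.31 in replicates 1 to 3). Gabrd turns on 1 library: it had 11.6, 22.3, 17.5 and 81.4 CPM after kainic acid, against 27.7, 25.8, 25.7 and 47.3 CPM after PBS. Its log2 fold change was 0.05 ± 0.48 with all libraries and -0.64 ± 0.36 in replicates 1 to 3 (adjusted p = 0.36). Interneuron markers summed to 5554 to 7524 CPM in PV IPs after kainic acid, against 4355 to 5412 CPM after PBS (3 of 12 called higher), and their part in the subunit values was not tested.

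In PV inputs 1 of the 7 subunits, Gabra5, fell, against 11.6% of 11145 genes called in either direction, 8.21% higher and 3.36% lower. Gabra5 had 302, 316, 321 and 245 CPM after kainic acid, against 431, 427, 429 and 351 CPM after PBS. Every kainic acid library lay below every PBS library, and within each replicate number the kainic acid value was the lower (-0.50 ± 0.13, adjusted p = 0.029). The call was lost without kainic acid replicate 1 or 3 or without PBS replicate 1, 2 or 3 (adjusted p of 0.056 to 0.094). With replicate number as a block it was -0.50 ± 0.07 (adjusted p = 6.9e-06), and Gabra4 (0.36 ± 0.09, adjusted p = 0.0040) and Gabrb1 (-0.22 ± 0.07, adjusted p = 0.021) were called too, so that 3 of the 7 passed. Over all 11145 genes tested, 3425 were called with this block, against 1289 without it. That block takes kainic acid and PBS pools of the same number as paired, which is an assumption. Gabra4 had 130, 178, 159 and 109 CPM after kainic acid, against 102, 128, 112 and 92.6 CPM after PBS. Gabra4 also passed in replicates 1 to 3 alone (0.43, adjusted p = 0.0097) and without kainic acid replicate 4 (0.49, adjusted p = 0.041). Interneuron markers summed to 3343 to 3709 CPM in PV inputs after kainic acid, against 2470 to 2731 CPM after PBS, and pyramidal neuron markers to 7988 to 8634 CPM against 9113 to 9910 CPM. Their part in the subunit results was not tested.

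The difference of kainic acid effects between fractions was tested itself, and no subunit passed. For CaMK2a IP minus CaMK2a input 0 of the 7 were called by edgeR, against 0.103% of 11623 genes. At unadjusted p under 0.05 there was 1, Gabrb1 (difference 0.43, interval 0.04 to 0.82, adjusted p = 0.59). Its log2 fold change was -0.11 in the IP, where it was not called, and -0.57 in the input. The difference for Gabra5 was 0.25 (interval -0.02 to 0.53) and for Gabrb2 -0.01 (interval -0.33 to 0.31). For CaMK2a IP minus PV IP again 0 of the 7 were called, against 0.0934% of 11781 genes, and 0 had an unadjusted p under 0.05. The intervals are wide: -0.78 to 0.04 for Gabra5, -0.65 to 0.09 for Gabrb2 and -0.93 to 0.55 for Gabra2. For PV IP minus PV input 0 of 7 were called, against 0.0253% of 11862 genes, and 0 had an unadjusted p under 0.05, with Gabra2 at 0.60 (interval -0.27 to 1.46). DESeq2 called 0 of the 7 in each of these tests. The number of all genes called moved with the setting: for CaMK2a IP minus CaMK2a input it was 12 with edgeR, 83 with DESeq2 and 5 to 63 with a library left out, the highest without kainic acid IP replicate 1, and for CaMK2a IP minus PV IP it was 11, against 43 with DESeq2 and 70 in PV replicates 1 to 3. The calls in the CaMK2a IP and the missing calls in the PV IP are therefore not shown to differ between the lines.

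IP was then compared with input from the same lysate, which asks how much of a transcript the tagged ribosomes hold relative to whole CA1. In the CaMK2a line 6 of 7 subunits were higher in the IP after kainic acid, against 50.1% of 11076 genes called in either direction, 24.3% higher and 25.8% lower. After PBS 6 were higher and 1, Gabrd, lower, against 64.2% of 11190 genes called in either direction, 32.6% higher and 31.6% lower. Their median log2 fold change was 1.24 after kainic acid and 1.01 after PBS, against -0.02 and -0.01 over all genes tested. Gabra2 had the highest value, at 1.54 ± 0.16 after kainic acid (adjusted p = 2e-05) and 1.45 ± 0.07 after PBS (adjusted p = 3e-11). The lowest of the 6 was Gabra3 after kainic acid, at 1.07 ± 0.17, and Gabrb1 after PBS, at 0.85 ± 0.06. For each of the 6, all IP libraries lay above all inputs, and each call held whichever library was left out. How many of all genes were separated in this way was not counted.

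Gabrd went the other way in the CaMK2a line. It had 9.13, 8.22 and 8.70 CPM in IPs after kainic acid, against 11.7, 9.66 and 18.1 CPM in inputs. After PBS it had 7.72, 10.8 and 10.5 CPM in IPs, against 16.4, 19.9 and 18.2 CPM in inputs. The IPs lay below the inputs after both treatments. The difference was -0.91 ± 0.17 after PBS (adjusted p = 0.00016) and -0.61 ± 0.26 after kainic acid (adjusted p = 0.074), where it passed without input replicate 2 (-0.80, adjusted p = 0.039), in a fit to all 4 CaMK2a groups (-0.59, adjusted p = 0.039) and with upper-quartile factors (-0.73, adjusted p = 0.039).

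In the PV line Gabrb2 and Gabrd were the subunits higher in the IP. After kainic acid 2 of 7 were called, against 11.0% of 11205 genes in either direction, 6.85% higher and 4.11% lower. After PBS 2 were higher and 2 lower, against 18.5% of 11204 genes in either direction, 10.6% higher and 7.98% lower. With the lysate pool as a block 3 were called after kainic acid and 5 after PBS, and the genes called numbered 2395, against 1227 without the block, and 3370, against 2077. Gabrb2 had 622, 623, 573 and 730 CPM in IPs after kainic acid, against 355, 383, 359 and 217 CPM in inputs. After PBS it had 697, 826, 773 and 618 CPM in IPs, against 429, 381, 400 and 252 CPM in inputs. The groups were far apart after both treatments, at 1.01 ± 0.19 (adjusted p = 0.0041) after kainic acid and 1.03 ± 0.17 (adjusted p = 7e-04) after PBS, and leaving out any library kept both calls.

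Gabrd had 27.7, 25.8, 25.7 and 47.3 CPM in PV IPs after PBS, against 5.62, 9.19, 7.30 and 13.7 CPM in inputs. Every IP library exceeded every input, and the difference of 1.85 ± 0.33 (adjusted p = 0.0013), or 3.6-fold, was 1.86 ± 0.28 in replicates 1 to 3 (adjusted p = 0.00045). After kainic acid it had 11.6, 22.3, 17.5 and 81.4 CPM in IPs, against 5.30, 7.22, 11.3 and 9.10 CPM in inputs. That difference of 2.07 ± 0.53 (adjusted p = 0.022) rests largely on replicate 4: it was 1.16 ± 0.41 in replicates 1 to 3 (adjusted p = 0.083) and 1.11 without IP replicate 4 (adjusted p = 0.079), and the call was also lost without input replicate 1 (1.91, adjusted p = 0.072) or input replicate 2 (2.02, adjusted p = 0.060). In the same IP library 12 interneuron markers summed to 7524 CPM, against 5554 to 6100 CPM in replicates 1 to 3, and 8 pyramidal neuron markers to 3471 CPM, against 5944 to 6642 CPM. In PV IP replicate 4 after PBS, where Gabrd was also highest, interneuron markers summed to 4355 CPM, against 4668 to 5412 CPM in replicates 1 to 3. Their part in the Gabrd values was not tested.

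Gabra2 and Gabra5 were lower in PV IPs than in PV inputs after PBS. Gabra5 had 301, 251, 269 and 282 CPM in IPs, against 431, 427, 429 and 351 CPM in inputs (-0.54 ± 0.13, adjusted p = 0.011), and kept its call without any one library. Gabra2 had 97.2, 81.1, 71.4 and 56.3 CPM in IPs, against 170, 157, 147 and 69.1 CPM in inputs (-0.79 ± 0.25, adjusted p = 0.038). The groups overlap only through replicate 4 of the inputs. The Gabra2 call was lost in a fit to all 4 PV groups (adjusted p = 0.088) and without IP replicate 2, 3 or 4 or input replicate 1, 2 or 3, at -0.82 to -0.67 (adjusted p of 0.072 to 0.12), but with the lysate pool as a block it was -0.74 ± 0.14 (adjusted p = 0.00045). With that block Gabrb1 was also lower in the IP, at -0.57 ± 0.08 after PBS (adjusted p = 3.1e-05) and -0.58 ± 0.12 after kainic acid (adjusted p = 0.0021). It was -0.57 ± 0.22 (adjusted p = 0.097) and -0.55 ± 0.31 (adjusted p = 0.29) without the block, passing there in replicates 1 to 3 (-0.59, adjusted p = 0.00023 after PBS; -0.53, adjusted p = 0.011 after kainic acid) and, after PBS, without input replicate 4 (-0.75, adjusted p = 0.011). Gabra3 and Gabra4 did not pass in the PV line, at 0.31 and 0.07 after PBS and -0.16 and 0.14 after kainic acid.

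**Figure D3:**
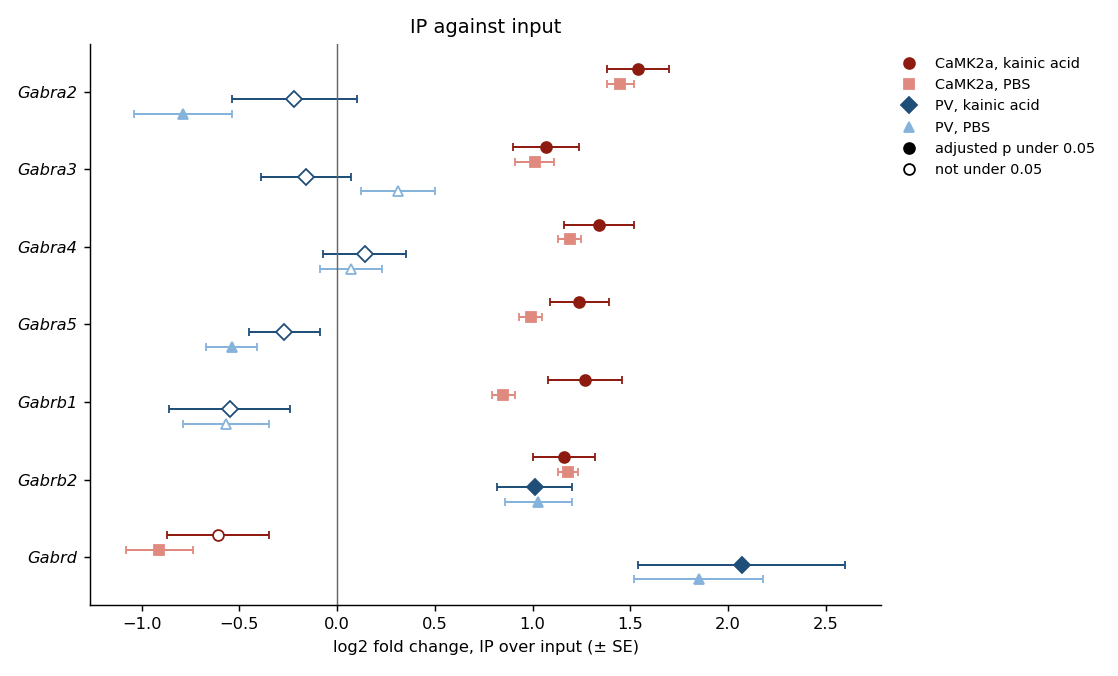
Log2 fold change of IP over input (horizontal axis, points with SE bars) for each subunit in the CaMK2a and PV lines after kainic acid and after PBS; filled symbols passed the adjusted p threshold of 0.05. Gabrb2 lies near 1 in both lines, at 1.01 to 1.18, while Gabrd lies at 2.07 after kainic acid and 1.85 after PBS in the PV line, and at -0.61 after kainic acid and -0.91 after PBS in the CaMK2a line.

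The enrichment itself differed between lines for 6 of the 7 subunits after PBS, against 27.5% of 11760 genes called in either direction, 13.3% higher and 14.3% lower. PV minus CaMK2a, Gabrd differed by 2.69 ± 0.42 (adjusted p = 0.00014), and Gabra2 by -2.30 ± 0.33 (adjusted p = 6.2e-05), Gabra5 by -1.58 ± 0.15 (adjusted p = 8.9e-07), Gabrb1 by -1.47 ± 0.30 (adjusted p = 0.0015) and Gabra4 by -1.17 ± 0.19 (adjusted p = 2e-04). These 5 calls held without any one library, and with PV replicates 1 to 3 alone the values were 2.76 for Gabrd, -2.36 for Gabra2, -1.61 for Gabra5, -1.43 for Gabrb1 and -1.10 for Gabra4. Gabra3 differed by -0.75 ± 0.23 (adjusted p = 0.024) and lost its call without CaMK2a input replicate 2 or 3, CaMK2a IP replicate 1 or PV input replicate 2 (adjusted p of 0.056 to 0.084). Its value with PV replicates 1 to 3 alone was again -0.75 (adjusted p = 0.021). Gabrb2 did not pass (-0.20, interval -0.61 to 0.21; -0.23 with PV replicates 1 to 3 alone). The inputs, whole CA1 in both lines, also differed between lines: after PBS Gabra2 was at 147 to 170 CPM in PV inputs 1 to 3 and 69.1 CPM in PV input 4, against 48.8 to 53.4 CPM in CaMK2a inputs. Gabrb1 was at 680 to 711 CPM in PV inputs 1 to 3 and 372 CPM in PV input 4, against 334 to 358 CPM in CaMK2a inputs. Gabrd was at 5.62 to 9.19 CPM in PV inputs 1 to 3 and 13.7 CPM in PV input 4, against 16.4 to 19.9 CPM in CaMK2a inputs. These input levels enter the difference, and the line, the RNA amount and the pool size cannot be told apart. Set side by side without a test, the IP levels after PBS were 25.7 to 47.3 CPM in PV and 7.72 to 10.8 CPM in CaMK2a for Gabrd, and 251 to 301 CPM in PV and 640 to 678 CPM in CaMK2a for Gabra5.

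Levels were compared between subunits per kb of the deposited transcript length. In all 4 CaMK2a groups Gabra5 was the highest of the 7 per kb. In CaMK2a IPs it had 110 ± 6.83 CPM per kb after kainic acid and 169 ± 5.59 CPM per kb after PBS. After kainic acid the next were Gabra2 (67.1 ± 12.9 CPM per kb), then Gabrb2 (52.1 ± 0.640) and Gabra4 (51.3 ± 2.74), then Gabrb1 (39.4 ± 5.21), Gabra3 (15.3 ± 1.87) and Gabrd (3.68 ± 0.193). The libraries of Gabra4 overlap those of Gabra2 and of Gabrb2. After PBS Gabrb2 was next (73.7 ± 1.68), followed by Gabra2 (47.1 ± 2.11), Gabrb1 (42.7 ± 3.44) and Gabra4 (40.8 ± 0.279), of which Gabrb1 overlaps its neighbours on both sides. In CaMK2a inputs Gabra5 was again well apart, at 46.0 ± 7.89 CPM per kb after kainic acid and 86.4 ± 1.59 CPM per kb after PBS, and Gabra3 and Gabrd were lowest, at 7.19 ± 1.31 and 5.57 ± 1.87 CPM per kb after kainic acid and 7.69 ± 0.197 and 7.71 ± 0.747 CPM per kb after PBS.

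In PV IPs Gabrb2 was the highest per kb, at 84.3 ± 8.76 CPM per kb after kainic acid and 96.5 ± 12.0 CPM per kb after PBS, apart from Gabra5 at 61.3 ± 10.8 and 71.5 ± 5.47 CPM per kb. Gabra2, Gabra4 and Gabrb1 followed at 25.5 to 42.9 CPM per kb after kainic acid and 25.9 to 28.5 CPM per kb after PBS, overlapping each other. After kainic acid Gabra2 and Gabra4 also overlapped Gabra5, and after both treatments the lower libraries of this set overlapped Gabrd. Gabrd and Gabra3 were lowest, and their libraries overlap, at 14.1 ± 13.7 and 11.2 ± 1.43 CPM per kb after kainic acid and 13.4 ± 4.45 and 13.4 ± 2.72 CPM per kb after PBS. In PV inputs the order was led by Gabra5 (76.7 ± 9.11 CPM per kb after kainic acid, 106 ± 10.1 after PBS) and ended with Gabrd (3.49 ± 1.09 and 3.79 ± 1.48). The deposited length of Gabra2 is 2960 bases, against 7640 exonic bases in GENCODE M21, so its place in these orders depends on the annotation.

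As a share of the summed CPM per kb of the 4 alpha subunits, Gabra5 took 45.3% ± 4.33 in CaMK2a IPs after kainic acid and 62.1% ± 1.22 after PBS (SD, n = 3 each). Gabra2 took 27.4% ± 4.14 after kainic acid and 17.3% ± 0.804 after PBS, and Gabra4 21.1% ± 0.264 and 15.0% ± 0.306. In CaMK2a inputs the Gabra5 share was 48.0% ± 0.643 after kainic acid and 66.7% ± 1.00 after PBS. In these shares no kainic acid library overlapped a PBS library. In PV IPs Gabra5 took 40.7% ± 5.18 after kainic acid and 52.0% ± 4.34 after PBS, with libraries at 35.8% to 46.6% and 46.5% to 57.1%, and in PV inputs 44.1% ± 4.28 after kainic acid and 56.4% ± 3.72 after PBS (n = 4 each). Shares were not tested, since a fall of one subunit raises the share of the others.

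**Figure D4:**
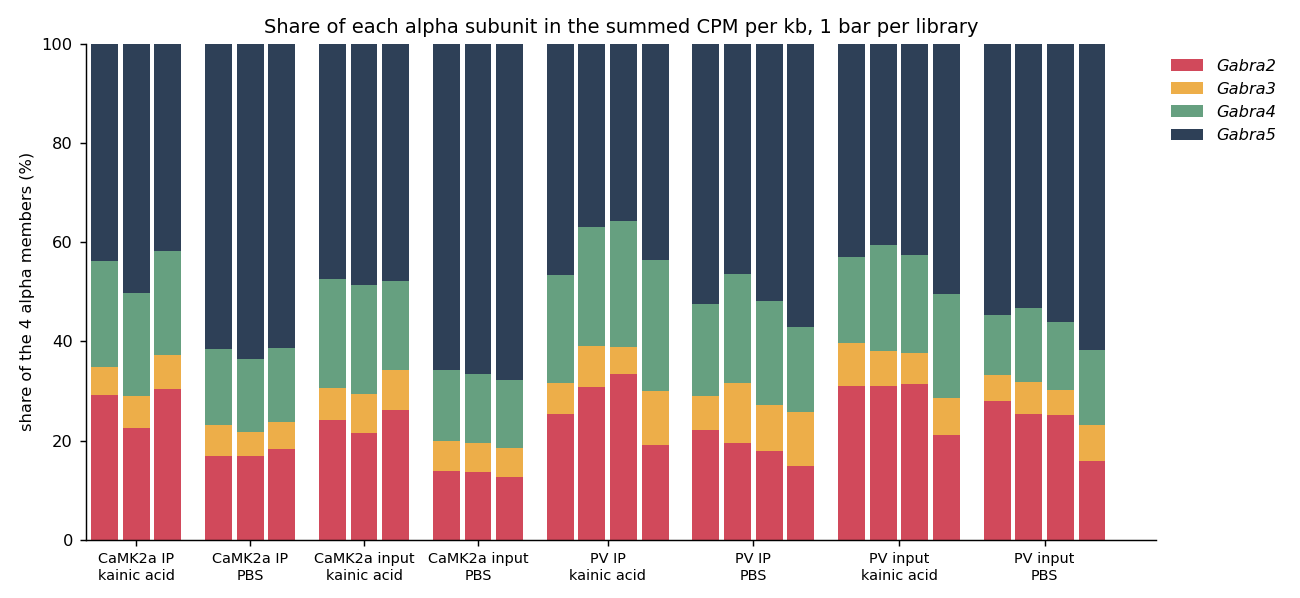
Share of Gabra2, Gabra3, Gabra4 and Gabra5 in their summed CPM per kb (vertical axis, percent), 1 stacked bar per library, grouped by line, fraction and treatment in replicate order. In CaMK2a IPs the Gabra5 part takes 41.9% to 50.1% after kainic acid and 61.3% to 63.5% after PBS.

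Of the receptor subunit genes beyond the 7, Gabrg3, a gamma subunit, averaged 33.1 ± 5.29 CPM in CaMK2a IPs after kainic acid and 44.5 ± 2.34 CPM after PBS (SD, n = 3 each). It fell by 0.42 ± 0.14 (edgeR quasi-likelihood test, adjusted p = 0.041), a call lost without kainic acid replicate 2 or any 1 PBS library (adjusted p of 0.070 to 0.13). In CaMK2a inputs Gabrg3 was at -0.37 ± 0.16 (adjusted p = 0.074). In the PV line it was at -0.22 ± 0.22 in the IP (adjusted p = 0.70) and -0.61 ± 0.27 in the input (adjusted p = 0.19). Gabrg3 was higher in the IP than in the input of both lines, at 1.68 ± 0.28 after kainic acid and 1.28 ± 0.21 after PBS in the PV line, and 0.81 ± 0.18 after kainic acid and 0.90 ± 0.10 after PBS in the CaMK2a line. The difference of that ratio between the lines after PBS was 0.32 ± 0.28 (adjusted p = 0.43). Gabrg1, another gamma subunit, averaged 12.4 ± 4.64 CPM in CaMK2a IPs after kainic acid and 12.6 ± 1.47 CPM after PBS, with a log2 fold change of -0.02 ± 0.26 (adjusted p = 0.95).

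In all, 56 further genes of GABA signalling were listed with earlier results of these data known, receptor subunits included, and 41 of them were tested in CaMK2a IPs, where 5 rose and 10 fell. That is 15 of 41, near the 35.1% of all genes called in this comparison. Among 7 tested genes of GABA synthesis, transport and breakdown 2 rose, Gad2 by 1.49 ± 0.27 (adjusted p = 0.0023) and Gad1 by 1.06 ± 0.22 (adjusted p = 0.0045), which make GABA, and 2 fell, one of them Aldh5a1, which breaks it down (-0.52, adjusted p = 0.013). Gad1 stood at 53.4 ± 17.4 CPM in CaMK2a IPs after kainic acid and 25.8 ± 3.73 CPM after PBS, against 1103 ± 284 and 889 ± 36.3 CPM in PV IPs. Both Gad genes are also among the 12 interneuron markers, of which 5 were called higher and 1 lower in this comparison. Among 19 scaffold and trafficking genes 2 rose and 2 fell: Ubqln1, which stabilises receptor subunits, rose by 0.60 ± 0.08 (adjusted p = 0.00043), and Shisa7, an auxiliary subunit of the receptor, and Slitrk3, a synaptic adhesion protein of inhibitory synapses, fell by 0.40 ± 0.09 (adjusted p = 0.0057) and 0.35 ± 0.09 (adjusted p = 0.011). Of 5 GABA-B receptor genes 1 rose, the auxiliary subunit Kctd12 (0.99 ± 0.14, adjusted p = 0.00044), and of 4 chloride transport genes 2 fell, the kinase Wnk1 (-0.37, adjusted p = 0.016) and the carbonic anhydrase Car7 (-0.59, adjusted p = 0.046). Single libraries decided the calls of Aldh5a1, lost without kainic acid replicate 3 or PBS replicate 2, of Wnk1, lost without kainic acid replicate 3 or PBS replicate 1 or 2, of Slitrk3, lost without PBS replicate 2, and of Car7, lost without kainic acid replicate 1 or 3 or any 1 PBS library.

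In CaMK2a inputs 10 of 42 listed genes tested rose and 7 fell, where 19.3% of all genes were called higher and 15.7% lower. Gad1 rose by 0.77 ± 0.10 (adjusted p = 6e-06), Gad2 by 0.64 ± 0.10 (adjusted p = 0.00011), Kctd12 by 0.61 ± 0.10 (adjusted p = 0.00011) and Ubqln1 by 0.44 ± 0.10 (adjusted p = 0.0015). Shisa7 fell by 0.62 ± 0.09 (adjusted p = 6.7e-05), and Slc12a5, the neuronal transporter that removes chloride from neurons, fell by 0.39 ± 0.09 (adjusted p = 0.0027). Trak2, a trafficking adaptor, rose by 0.38 ± 0.10 (adjusted p = 0.0050), and Gabbr2, a GABA-B receptor subunit, fell by 0.39 ± 0.11 (adjusted p = 0.0091), both calls being lost without PBS replicate 2 (adjusted p of 0.051 and 0.053). Slc6a13, a GABA transporter outside neurons, fell by 0.91 ± 0.23 (adjusted p = 0.0057), a call lost in a fit to all 4 CaMK2a groups (adjusted p = 0.082). In the PV line, where 4.85% of all genes were called in the IP and 11.6% in the input, 1 of 43 listed genes tested in the IP rose, Kctd12 (0.89 ± 0.20, adjusted p = 0.015, lost without kainic acid replicate 1 or 3 or PBS replicate 2), and in the input Kctd12 rose (0.73 ± 0.13, adjusted p = 0.0031) and Shisa7 fell (-0.53 ± 0.15, adjusted p = 0.042, lost without any one of the libraries but kainic acid replicate 4).

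Subunits were also set against 8176 genes by Pearson's r of the mean log2 CPM over the 8 groups. These were all genes with a listed count in all 28 libraries and a mean log2 CPM of at least 3. The 8 points share lysates and libraries, and the highest values of so many are high by selection. The genes most like Gabra5 were Ppp3cb (r = 0.994) and Sprn (r = 0.993), those most like Gabrb2 Lrrc49 (r = 0.995) and Ntm (r = 0.992), those most like Gabra4 Mbnl1 (r = 0.994) and Fmr1 (r = 0.990), and those most like Gabra2 Las1l (r = 0.983) and Psmc2 (r = 0.981). For Gabra3 they were Birc2 (r = 0.990) and Crk (r = 0.987), for Gabrb1 Actr10 (r = 0.987) and Kdm4c (r = 0.982), and for Gabrd Cox7b (r = 0.991) and Rab3b (r = 0.976). Among the subunits the most alike pair was Gabra2 and Gabra4 (r = 0.92), followed by Gabra3 and Gabra4 (r = 0.89) and Gabra5 and Gabrb1 (r = 0.86), and the least alike was Gabra2 and Gabrd (r = -0.61).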

How the data were processed

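RNA of 28 libraries was analysed, grouped by the labels into 8 groups (Cre line, kainic acid or PBS, IP or input). The deposited counts are whole reads per gene; the submitters' processing notes name BWA and edgeR (versions not given) and the build mm10, that is GRCm38, as what the authors used. Per the labels' protocols RNA was SPIA-amplified and read as 75 bp single ends. The deposited tables hold coding genes with at least 4 reads in sum, higher and lower genes apart; they were joined here. The deposited fold (a linear ratio) and FDR, a p-value adjusted by the authors, are quoted in 1 place; the deposited RPKM and CPM columns were not used in tests. Of 189281 values of libraries shared between tables, 0 differed.

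Tests were edgeR 4.0.16 quasi-likelihood tests (R 4.3.3) on the counts: TMM factors, filterByExpr with minimum count 10, the 2 groups compared only, or a model of group means for differences of effects, Benjamini-Hochberg over all genes tested, threshold 0.05. SE was obtained by dividing the absolute fitted log2 value by the root of its F statistic. Intervals are 1.96 SE on each side, narrower than 95% intervals by the F test. The prior count was 0.125. IP against input after PBS has no deposited table and was built from the others' counts. The scripts were tested on simulated data. Pandas 2.3.3 and matplotlib 3.10.9 (Python 3.11.15) made tables and figures. DESeq2 1.42.0, other factors and filters, fits to all groups of a line, blocks, PV replicates 1 to 3 and leaving out single libraries were the alternatives. The 7 genes, the pathway and marker lists and the naming rule (up to 3 called genes of each of 5 sublists with the lowest adjusted p, all further subunits tested, and the 2 most alike genes; some subunits are not reported here) were chosen with earlier results of these data known.

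IP and input of 1 number share a lysate pool per the series text, so they are paired; the tests reported have no block, and the value with the pool as a block is given where it changed a call. For kainic acid against PBS, deviations of same-numbered libraries correlated at 0.11 to 0.32 in CaMK2a inputs and 0.17 to 0.70 in PV inputs. These were over 0.1 in every pair, so the block is given there. In IPs it was not (lowest -0.24 in CaMK2a and 0.04 in PV). The best match was not always the same number: kainic acid input replicate 2 was most like PBS input replicate 1 in both lines. In PV IPs each number matched its own number best. The pairing of kainic acid and PBS pools by number is thus an assumption that these values do not settle. Labels call the pools bioreplicates. Counts carry no molecular identifiers, so reads of amplified cDNA are not independent molecules.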

Additional observations from a re-analysis of the deposited data

Results flagged for a closer look

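A single library lay far from the other 3 of its group in 6 of the 28 combinations of subunit and PV group, by Dixon's gap ratio above its 95% critical value; chance gives about 1 in 20. Gabrd had 81.4 CPM in PV IP replicate 4 after kainic acid and 47.3 CPM in PV IP replicate 4 after PBS, both above the other libraries. Below the others lay Gabrb2 in PV input replicate 4 after kainic acid (217 CPM), Gabra5 in PV input replicate 4 after PBS (351 CPM) and Gabrb1 in the same library (372 CPM). Gabra3 in PV input replicate 2 after PBS lay above (49.8 CPM). Of these 6 values 5 come from replicate 4.

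The IP over input ratio after PBS differed between the lines, PV minus CaMK2a, for 6 of the 7 subunits by a test of the difference itself. In this comparison 27.5% of 11760 genes were called. These 6 were the only calls among 28 differences of effects tested for the subunits. The others were differences of kainic acid effects, where 0.0253% to 0.103% of all genes were called. On the log2 scale the 6 were Gabrd at 2.69, Gabra2 at -2.30, Gabra5 at -1.58, Gabrb1 at -1.47, Gabra4 at -1.17 and Gabra3 at -0.75 (edgeR quasi-likelihood test, adjusted p between 8.9e-07 and 0.024). The lines also differ in RNA amount and pool size, so line and library preparation cannot be told apart.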

How the results depend on the processing

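Of 84 subunit values (7 genes in 12 comparisons) 34 passed the test; 31 of these kept their direction and call under every alternative with all libraries and in PV replicates 1 to 3, 27 also when any single library was left out, and 0 changed sign. The number of subunits called in CaMK2a IPs was 4, and 2 to 4 with a library left out (2 without PBS replicate 1). It was 0 in PV IPs, 1 in PV replicates 1 to 3 and 0 to 1 with a library left out. In PV inputs it was 1, 3 with the replicate block, 2 in replicates 1 to 3 and 0 to 2 with a library left out; for IP against input after kainic acid in the PV line it was 2, and 1 to 2 with a library left out. In IPs the block of replicate number changed no call of the 7 subunits between treatments. It took Gabrg3 and Car7 over the threshold in CaMK2a IPs (adjusted p = 0.062 and 0.069). The lower IP level of Gabrg1 in the CaMK2a line after PBS (-0.37, adjusted p = 0.048) was lost without a low-count filter, with DESeq2, with the block, in the fit to all groups and without IP or input replicate 2 or 3 (adjusted p of 0.065 to 0.18).

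The values that changed sign were all uncalled. For kainic acid against PBS, Gabra3 in CaMK2a IPs was -0.08 with upper-quartile factors, -0.00 without a filter and -0.01 in the fit to all groups (-0.09 to 0.11 with a library left out), Gabrd in PV IPs was -0.32 with the block and -0.64 in replicates 1 to 3 (-0.92 to 0.34), and Gabrd in PV inputs was 0.08 in replicates 1 to 3 (-0.35 to 0.14). Leaving out a library gave -0.38 to 0.05 for Gabrb1 in PV IPs, and -0.06 to 0.36 for Gabra2 and -0.36 to 0.03 for Gabrb1 in PV inputs. For IP against input in the PV line, Gabra4 was -0.01 with upper-quartile factors after PBS, and after kainic acid Gabra2 was -0.49 to 0.01 and Gabra4 -0.03 to 0.26 with a library left out. For CaMK2a IP minus CaMK2a input, Gabrb2 was 0.00 with relative log expression factors and with DESeq2, 0.02 without a filter and 0.01 with the block (-0.10 to 0.18). For PV IP minus PV input, Gabrb2 was -0.02 with relative log expression factors and with DESeq2, -0.03 with upper-quartile factors and -0.18 in replicates 1 to 3 (-0.19 to 0.14), Gabrb1 -0.01 with upper-quartile factors (-0.21 to 0.24), Gabrd -0.16 with the block and -0.72 in replicates 1 to 3 (-0.77 to 0.49), and Gabra4 -0.09 to 0.17 with a library left out. For CaMK2a IP minus PV IP, Gabrd was 0.19 with the block and 0.44 in PV replicates 1 to 3 (-0.55 to 0.77), Gabrb1 -0.04 in PV replicates 1 to 3 (-0.16 to 0.28), and Gabra2 -0.41 to 0.09 and Gabra4 -0.19 to 0.08 with a library left out. The cause was not tested.

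Over all genes, the number called for kainic acid against PBS was 3744 in CaMK2a IPs and 2480 without PBS replicate 3. In PV IPs it was 539, 871 with DESeq2, 899 with the block and 1061 in the fit to all groups, and in PV inputs 1289, 3425 with the block, 2758 in replicates 1 to 3 and 817 in the fit to all groups. IP against input in the PV line gave 1227 after kainic acid, 2395 with the block, and 2077 after PBS, 3370 with the block. The differences of kainic acid effects gave 12 for CaMK2a IP minus CaMK2a input (57 with the block), 3 for PV IP minus PV input (7 with DESeq2, 9 with the block, 10 in replicates 1 to 3) and 11 for CaMK2a IP minus PV IP (17 with the block, 2 to 24 with a library left out). Upper-quartile factors moved the percent of calls that were higher to 42.4, against 56.4, in CaMK2a IPs and to 50.9, against 62.5, in PV IP against input after kainic acid, and moved the median of all genes to -0.15 and -0.13 in CaMK2a IP against input after kainic acid and after PBS. Gabrd rests on 41 to 1349 reads per library, the other subunits on 155 to 12103.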
